A study of Homo sapiens with 12 samples.

Results

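The genes of the proteasome were followed in ovarian cancer cells treated with BAY-850, a compound directed at the bromodomain of ATAD2, a chromatin protein. The set held 42 genes, chosen by symbol from the 26475 gene symbols of the count table: PSMA1 to PSMA7, PSMB1 to PSMB10, PSMC1 to PSMC6, PSMD1 to PSMD14, PSME1 to PSME4 and POMP. All 42 had a row of their own. PA-1, a line from an ovarian teratocarcinoma grown in DMEM, and SK-OV-3, a line from an ovarian adenocarcinoma grown in RPMI, were each given vehicle (DMSO) or BAY-850 at 5 µM, for 48 h. RNA was sequenced from 3 biological replicates of each of the 4 groups, 12 libraries in all. Each cell type is represented by 1 established line, and line and medium cannot be told apart.

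The proteasome degrades proteins that carry ubiquitin chains. Its 20S core is a barrel of outer rings built of alpha subunits (PSMA) and inner rings built of beta subunits (PSMB), and the cutting sites belong to PSMB5, PSMB6 and PSMB7. Interferon induces alternative catalytic subunits, and in the resulting immunoproteasome PSMB8 takes the place of PSMB5, PSMB9 that of PSMB6 and PSMB10 that of PSMB7, which favours peptides that fit MHC class I molecules. The core is opened by caps: the 19S particle, with its ATPase ring (PSMC) and its other subunits (PSMD), or the PSME activators, of which PSME1 and PSME2 (PA28 alpha and beta) are also induced by interferon, PSME3 (PA28 gamma) is nuclear and PSME4 is PA200. Of the PSMD genes, PSMD5, PSMD9 and PSMD10 encode assembly chaperones of the cap, and they are counted here with the 19S cap genes. POMP assists maturation of the core.

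Levels are given as counts per 1e6 counts (CPM) after scaling by trimmed mean of M-values (TMM), and a gene was called changed at a Benjamini-Hochberg adjusted p under 0.05 in edgeR's quasi-likelihood test over all genes tested. Library totals ranged from 34544505 to 51840233 expected counts, and ribosomal RNA genes took 7.94% to 16.9% of them. In SK-OV-3 BAY-850 replicate 3, 15629 genes had a count, against 17425 to 18414 in the other 11 libraries. The 42 genes took 0.428% to 0.432% of the counts in PA-1 cells with DMSO, 0.400% to 0.410% in BAY-850-treated PA-1 cells, 0.676% to 0.711% in SK-OV-3 cells with DMSO and 0.611% to 0.623% in SK-OV-3 cells with BAY-850. The 39 genes outside the immunoproteasome lay between 17.1 and 590 CPM in every library. Markers of the lines were examined under DMSO. The 8 embryonal genes examined summed to 1372 to 1574 CPM in PA-1 and 6.48 to 8.15 CPM in SK-OV-3 cells. Of 10 epithelial genes 8 were lower and 2 higher in PA-1, where 40.1% and 40.2% of all genes tested were. In bulk RNA, fewer expressing cells and less RNA per cell cannot be told apart.

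Under DMSO, PA-1 cells had PSMB8 and PSMB9 at or near 0 and held lower levels of most other proteasome genes than SK-OV-3 cells. Of the 42 genes, 36 were lower in PA-1, 2 were higher (PSMA2 and PSMB6) and 4 were not called (PSMB5, PSMD8, PSMD9 and PSME2). Among all 16070 genes tested between the lines, 40.1% were lower and 40.2% higher. The median log2 difference was -0.59 over the 42 genes and -0.0019 over all genes tested. The comparison between lines and the treatment comparisons below share their DMSO libraries.

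The widest gaps between the lines were in the immunoproteasome. PSMB8 stood at 0.376, 1.66 and 0.707 CPM in the PA-1 DMSO libraries, and at 107, 92.7 and 92.0 CPM in the SK-OV-3 DMSO libraries. PSMB9 stood at 0.231, 0.222 and 0.0849 CPM in PA-1, from 8, 10 and 3 counts, and at 24.4, 22.6 and 22.9 CPM in SK-OV-3. Both genes were thus scarce in 1 line and plainly expressed in the other, with log2 differences of -6.64 ± 0.232 (SE; adjusted p = 3.25e-11) for PSMB8 and -6.97 ± 0.215 (SE; adjusted p = 9.88e-12) for PSMB9. PSMB10 differed less, at 8.07, 5.57 and 6.28 CPM in PA-1 and 25.6, 24.4 and 24.4 CPM in SK-OV-3, a log2 difference of -1.90 ± 0.133 (SE; adjusted p = 2.85e-08). PSMB8 and PSMB9 overlap on chromosome 6 in GENCODE v29 (GRCh38). PSMB8 lies at 32840717 to 32844703 on the minus strand and PSMB9 at 32844136 to 32859585 on the plus strand. This PSMB9 span contains TAP1, at 32845209 to 32853978 on the minus strand. The RefSeq start of PSMB9 used for the motif search below lies beyond 32854191, past TAP1, so the extent of PSMB9 depends on the annotation. By the GENCODE exons, PSMB8 and PSMB9 share 139 bases, 4.64% of those of PSMB8. PSMB8 exons share 618 bases (20.6%) with the antisense transcript PSMB8-AS1. PSMB10 lies at 67934502 to 67937087 of chromosome 16.

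Of the constitutive 20S core, 11 of 14 genes were lower in PA-1, 2 were higher and 1 was not called (median log2 difference -0.62). PSMB6, the caspase-like catalytic subunit that PSMB9 replaces, went against the rest of the core: it stood at 114, 106 and 99.2 CPM in PA-1 and at 53.7, 48.0 and 46.7 CPM in SK-OV-3, 2.16-fold higher in PA-1 (adjusted p = 1.76e-08). PSMA2, an alpha ring subunit, was 1.41-fold higher in PA-1 (adjusted p = 4.80e-06). PSMB5, the chymotrypsin-like subunit, differed by 0.07 on the log2 scale (95% interval -0.08 to 0.23) and was called higher in PA-1 only when SK-OV-3 DMSO replicate 1 was left out (log2 difference 0.15, adjusted p = 0.0410). PSMB7, the trypsin-like subunit, was lower in PA-1 (-0.63), as were PSMA6 (-0.98) and PSMA5 (-0.74) of the alpha ring, which had the smallest p-values there. PSMA2 and PSMA6 have 3 and 4 annotated pseudogenes without a row in the table, so reads shared with those could be counted for them.

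Of the 19S cap, 18 of 20 genes were lower in PA-1 and 2 were not called (median log2 difference -0.36). PSMD2, the scaffold subunit that docks ubiquitin-like shuttle proteins, stood at 580, 585 and 590 CPM in SK-OV-3 cells and at 188, 182 and 189 CPM in PA-1 (log2 difference -1.65 ± 0.048 SE, adjusted p = 6.42e-12). PSMD3 was -1.53 lower on the log2 scale and the ATPase PSMC1 -1.40 (adjusted p = 2.92e-10), while PSMC3 was close to the threshold (-0.16, adjusted p = 0.0483) and was not called without PA-1 DMSO replicate 2, PA-1 DMSO replicate 3 or SK-OV-3 DMSO replicate 1 (adjusted p of 0.103 to 0.175). Calls of PSMD7 and PSMD10, with values of -0.13 and -0.15, were also lost, without 2 and 4 of the 6 libraries in turn (adjusted p of at most 0.107) and with the GC trend removed (-0.030, adjusted p = 0.568, and -0.12, adjusted p = 0.0886). POMP was lower in PA-1 by -0.98. Among the activators, PSME1 (-0.42), PSME3 (-0.68) and PSME4 (-0.25) were lower in PA-1, and PSME2 was not called (-0.09, adjusted p = 0.319).

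**Figure D1:**
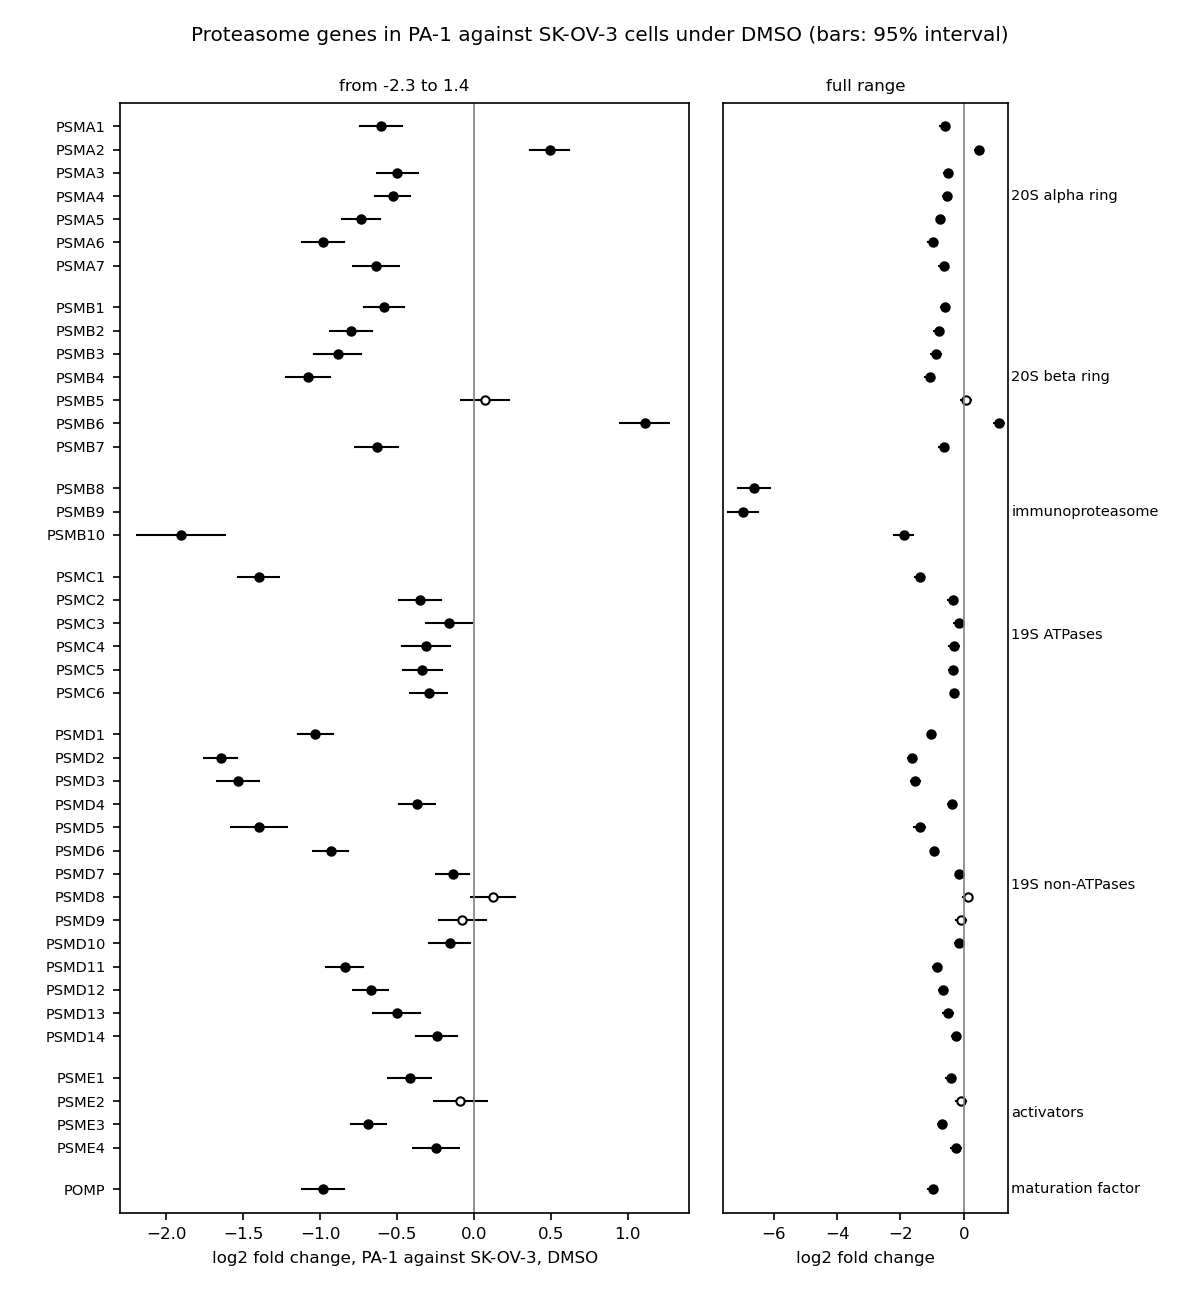
Log2 difference of each of the 42 genes between PA-1 and SK-OV-3 cells under DMSO, grouped by role, with 95% intervals as bars. Points left of 0 are lower in PA-1, filled points passed an adjusted p of 0.05 and open points did not, and the right panel holds the full range with PSMB8 and PSMB9 near -7. Most points lie left of 0, and PSMA2 and PSMB6 are the filled points to its right.

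In SK-OV-3 cells, BAY-850 treatment resulted in opposite changes within the proteasome. PSMB9, PSME1 and PSME2 were upregulated, 1.25- to 1.54-fold, and 15 genes of the constitutive core, the 19S cap and PSME3 were downregulated, to between 0.696 and 0.884 of their DMSO level. The other 24 genes were not called. Over all 15348 genes tested, 10.8% were called higher and 9.56% lower, so the 3 of 42 higher genes were no larger a share than that of all genes, while the 15 of 42 lower genes were a larger one. The median log2 fold change of the 42 genes was -0.15, with 36 of 42 below 0, against -0.0091 over all genes. The groups did not overlap for 3 genes in the upward direction and 22 in the downward one, where 19.4% and 19.5% of all genes tested separated in this way. The called genes and those short of the threshold are shown in the plot of log2 fold changes by gene.

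**Figure D2:**
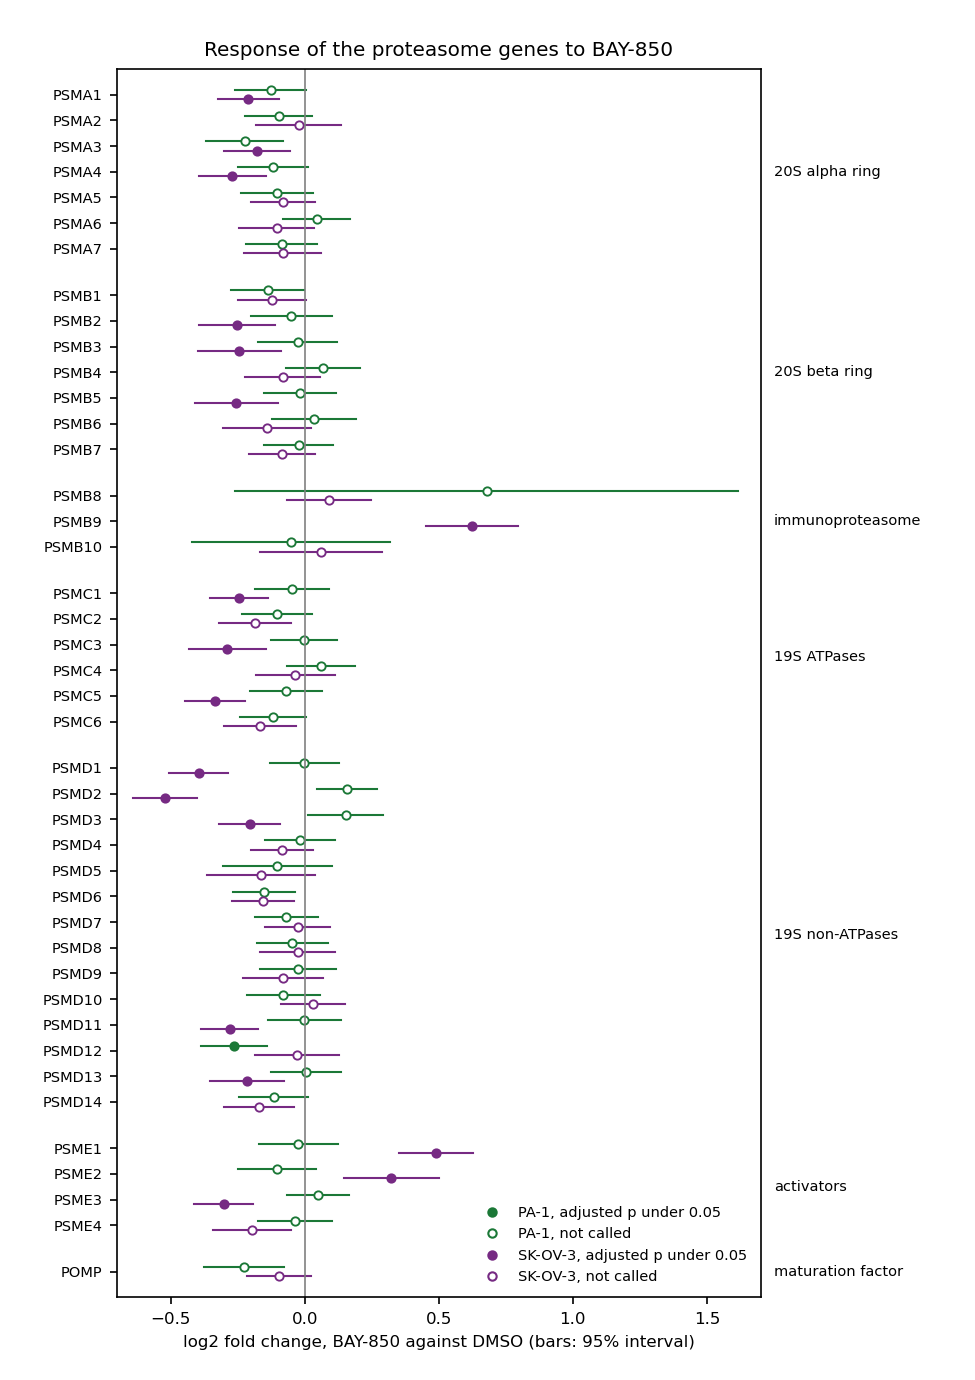
Log2 fold change of each of the 42 genes with BAY-850 against DMSO, in PA-1 (green) and SK-OV-3 cells (purple), grouped by role, with 95% intervals as bars and filled points for an adjusted p under 0.05. In SK-OV-3 cells PSMB9, PSME1 and PSME2 lie right of 0 and 15 filled points lie left of it, and in PA-1 cells PSMD12 is the filled point. PSMB9 has no PA-1 point because its counts there were too low to test.

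PSMB9 was the immunoproteasome subunit that rose. It stood at 24.4, 22.6 and 22.9 CPM in the SK-OV-3 DMSO libraries and at 37.2, 34.98 and 34.8 CPM in the BAY-850 libraries, a log2 fold change of 0.62 ± 0.078 (SE; 95% interval 0.45 to 0.80, adjusted p = 2.28e-04). The BAY-850 libraries all lay above the DMSO libraries. PSMB8, at 107, 92.7 and 92.0 CPM with DMSO and 100.5, 109 and 99.1 CPM with BAY-850, was not called (0.09 ± 0.071 SE, adjusted p = 0.414), and its interval ran from -0.07 to 0.25. PSMB10 was not called either, at 25.6, 24.4 and 24.4 CPM with DMSO and 24.1, 30.1 and 22.9 CPM with BAY-850 (0.06 ± 0.103 SE, adjusted p = 0.732). For both genes the groups overlapped, and the upper ends of their intervals (0.25 and 0.29) lay below the lower end for PSMB9.

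The activators split by type. PSME1 stood at 125, 111 and 111 CPM with DMSO and at 159, 160 and 164 CPM with BAY-850 (log2 fold change 0.49 ± 0.062 SE, adjusted p = 2.55e-04). PSME2, its partner in the PA28 ring, stood at 48.3, 45.5 and 41.5 CPM with DMSO and at 52.7, 56.0 and 59.0 CPM with BAY-850 (0.32 ± 0.081 SE, adjusted p = 0.0154). PSME3, the nuclear PA28 gamma, went the other way, from 174, 179 and 185 CPM to 142, 144 and 146 CPM (-0.30 ± 0.051 SE, adjusted p = 0.00165). In each of the 3 genes the DMSO and BAY-850 libraries did not overlap. The call of PSME2 was lost without SK-OV-3 DMSO replicate 2 (0.33, adjusted p = 0.0605) or replicate 3 (0.27, adjusted p = 0.0763). PSME4 gave -0.20 (adjusted p = 0.0573). PSME1 and PSME2 lie on chromosome 14 at 24136158 to 24138967 (plus strand) and 24143362 to 24147570 (minus strand), and PSME3 on chromosome 17 at 42824385 to 42843758. PSME2 has 2 annotated pseudogenes that have no row in the table, so reads shared with them could be counted for it.

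**Figure D3:**
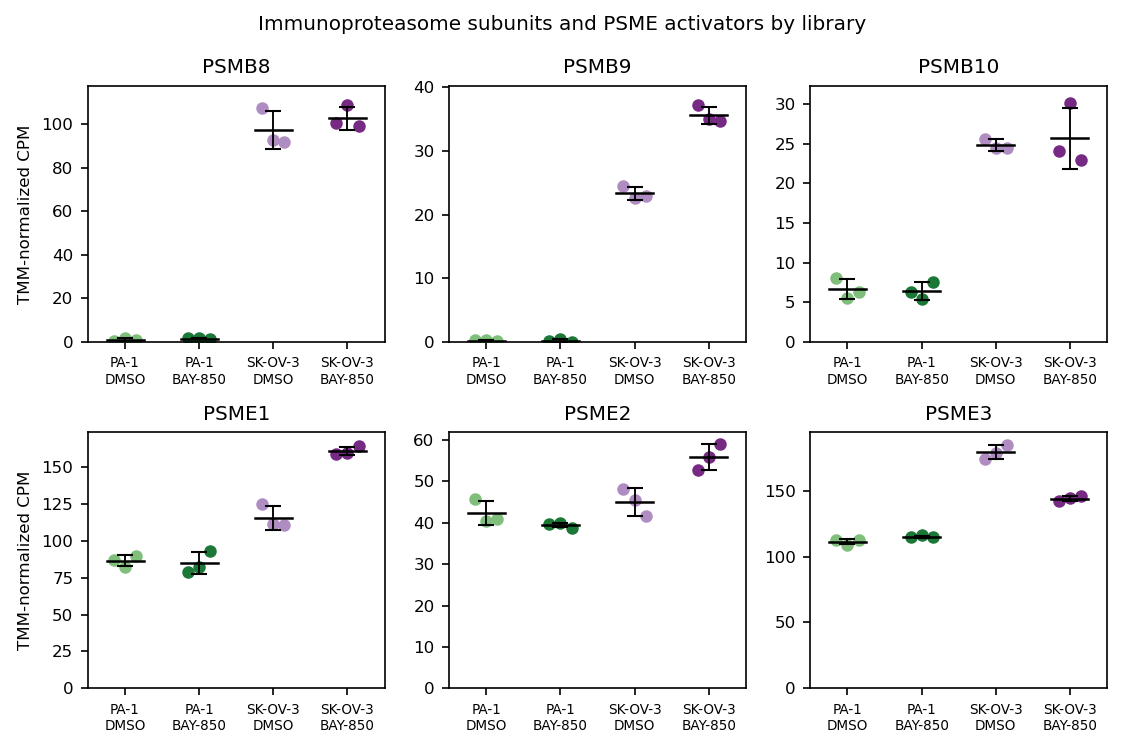
TMM-normalized CPM of PSMB8, PSMB9, PSMB10, PSME1, PSME2 and PSME3 in each of the 12 libraries, with the mean as a horizontal line and the SD of 3 libraries as a bar. In SK-OV-3 cells the BAY-850 points lie above the DMSO points for PSMB9, PSME1 and PSME2 and below them for PSME3, and PSMB8 and PSMB9 lie near 0 in every PA-1 library.

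PSMB8, PSMB9, PSMB10, PSME1 and PSME2 are textbook interferon targets, of which PSMB8 and PSMB10 were not called in SK-OV-3 cells. The 250 bases before the start of each of the 42 genes in RefSeq (GRCh38.p14) were searched on both strands. The motifs were an interferon-stimulated response element core (GAAA repeated after any 2 bases), a gamma-activated site (TTCNNNGAA) and an antioxidant response element core (TGACNNNGC). An entry was present for 37 of the 42 genes, PSMA7, PSMB1, PSMB6, PSMB7 and PSMD4 being the others. The first motif was found in 4 of the 37 (10.8%), and in 3.02% of 34943 promoters. The gamma-activated site was found in 4 of 37 (10.8%, against 6.56% of all promoters) and the antioxidant core in 9 of 37 (24.3%, against 10.9%). Each member entered with a single promoter, whereas the background held every distinct promoter position, so the shares were not counted over like units. The gamma-activated site lay before PSMD3 and PSME3, downregulated in SK-OV-3 cells, and PSMA2 and PSMC4, not called there. The antioxidant core lay before the upregulated PSMB9, PSME1 and PSME2 and the downregulated PSMB3 and PSMD3. It also lay before PSMD5, PSMD9, PSMD12 and PSME4, which were not called in SK-OV-3 cells. The 4 windows with the first motif are shown because they set members that changed beside members that did not, with the match in capitals. That of TAP1, a peptide transporter gene within the GENCODE span of PSMB9 and not one of the 42 genes, is shown as well. The windows run 5′ to 3′ on the strand of the gene. They lie at chr16:67936851-67936891 (PSMB10, minus), chr14:24146611-24146658 (PSME2, minus), chr15:78540155-78540194 (PSMA4, plus), chr1:151399485-151399534 (PSMB4, plus) and chr6:32853809-32853858 (TAP1, minus).
PSMB10: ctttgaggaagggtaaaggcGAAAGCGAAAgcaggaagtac
PSME2: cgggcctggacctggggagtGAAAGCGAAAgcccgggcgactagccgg
PSMA4: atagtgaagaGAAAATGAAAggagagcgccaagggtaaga
PSMB4: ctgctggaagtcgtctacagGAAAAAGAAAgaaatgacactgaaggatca
TAP1: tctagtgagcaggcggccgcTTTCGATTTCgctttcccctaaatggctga

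The matches start 21 bases before the PSMB10 start, 28 before that of PSME2, 240 before that of PSMA4 and 68 before that of PSMB4, and those of PSMB10 and PSME2 share the same 10 bases. In TAP1 the match is on the opposite strand, and a second match overlaps it. Of the proteasome genes shown, PSME2 was upregulated in SK-OV-3 cells, PSMA4 was downregulated, and PSMB10 and PSMB4 were not called. TAP1 was upregulated too, but it is outside the proteasome set, and no other gene outside the set was examined singly. The windows of PSMB8, PSMB9 and PSME1 held neither interferon motif, and the TAP1 matches lie outside the PSMB9 window, which began at 32853942. A match of these letters is a description of the window, and no binding was measured.

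Among the constitutive 20S genes in SK-OV-3 cells, 6 of 14 were downregulated, and all 14 values lay below 0 (median -0.13). In the alpha ring PSMA4 went from 243, 234 and 233 CPM to 186, 193 and 204 CPM (-0.27, adjusted p = 0.00626), and PSMA1 (-0.21, adjusted p = 0.0139) and PSMA3 (-0.18, adjusted p = 0.0436) were lower too. In the beta ring PSMB2 (-0.25, adjusted p = 0.0184), PSMB3 (-0.24, adjusted p = 0.0310) and PSMB5 were downregulated. PSMB5, the counterpart of PSMB8, went from 139, 121 and 117 CPM to 102, 104 and 106 CPM (-0.25 ± 0.071 SE, adjusted p = 0.0256). PSMB6 (-0.14, adjusted p = 0.213) and PSMB7 (-0.08, adjusted p = 0.328), the counterparts of PSMB9 and PSMB10, were not called, and POMP gave -0.10 (adjusted p = 0.241). Of the 6 downregulated core genes, PSMA4 was the one called under every alternative processing.

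In the 19S cap of SK-OV-3 cells, 3 of 6 ATPases and 5 of 14 PSMD genes were downregulated, and 19 of the 20 values lay below 0 (median -0.17). PSMD2 had the largest decrease of the 42 genes, from 580, 585 and 590 CPM to 428, 420 and 365 CPM (0.696-fold, -0.52 ± 0.054 SE, adjusted p = 5.78e-05). PSMD1, the other large scaffold subunit, went from 193, 191 and 200 CPM to 144, 148 and 148 CPM (-0.40 ± 0.050 SE, adjusted p = 2.54e-04). Among the ATPases, which unfold substrates, PSMC5 went from 158, 150 and 150 CPM to 122, 119 and 120 CPM (-0.33 ± 0.052 SE, adjusted p = 9.72e-04). In each of these genes every BAY-850 library lay below every DMSO library. PSMC1 (-0.24, adjusted p = 0.00460), PSMC3 (-0.29, adjusted p = 0.00955), PSMD11 (-0.28, adjusted p = 0.00217), PSMD3 (-0.21, adjusted p = 0.0168) and PSMD13 (-0.22, adjusted p = 0.0318) completed the downregulated cap genes. The ubiquitin receptor PSMD4 (-0.08, adjusted p = 0.296) and the deubiquitinase PSMD14 (-0.17, adjusted p = 0.0647) were not called, nor were the base assembly chaperones PSMD5, PSMD9 and PSMD10. Exons of PSMC1 share 75.8% of their bases with NRDE2 on the opposite strand, those of PSMC5 19.5% with FTSJ3 and those of PSMD1 10.8% with HTR2B, and the strand setting of the counting is not given in the sources used here, so reads of these partners may be mixed. PSMC1 also has 13 annotated pseudogenes without a row in the table, and PSMD10 has 3.

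The 7 other calls of lower genes were less stable. Without 1 library, PSMA1, PSMA3, PSMB2, PSMB3, PSMB5, PSMD3 and PSMD13 lost their call in 2 to 5 of 6 cases, with an adjusted p of at most 0.154. PSMA3 also lost its call with library size only (adjusted p = 0.0802) and with the GC trend removed (adjusted p = 0.0947). Leaving out 1 library moved the count of 15 downregulated genes to 12, 9 or 13 without SK-OV-3 DMSO replicate 1, 2 or 3, and to 8, 8 or 18 without BAY-850 replicate 1, 2 or 3. The 8 genes that were called under every alternative were PSMA4, PSMC1, PSMC3, PSMC5, PSMD1, PSMD2, PSMD11 and PSME3. PSMB9 and PSME1 were called higher under every alternative. The summed level of the 10 epithelial markers was also lower with BAY-850 in SK-OV-3 cells, at 3205 to 3687 CPM against 4356 to 4657 CPM. Of the 10 genes 5 were called lower and 1 higher, against 9.56% and 10.8% of all genes tested. The part of this decrease in the changes of the proteasome genes was not tested. Of 6 blood cell markers, 5 did not exceed 0.665 CPM in any library, and CD68, also expressed by other cells, was at 28.4 to 28.8 CPM with DMSO and 37.6 to 39.9 CPM with BAY-850.

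The proteasome genes of PA-1 cells changed little upon BAY-850 treatment. PSMD12, a 19S lid subunit on chromosome 17 (67337916 to 67366627), was the called gene among the 41 tested, and it was lower. It stood at 79.9, 81.6 and 81.5 CPM with DMSO and at 68.0, 69.7 and 64.6 CPM with BAY-850, without overlap (-0.26 ± 0.057 SE, 0.833-fold, adjusted p = 0.0133). Its call was lost without PA-1 DMSO replicate 2 (adjusted p = 0.0691), with scaling by library size only (adjusted p = 0.0561) and with each library's trend on GC content removed (-0.14, adjusted p = 0.164). Over all 15212 genes tested in PA-1, 4.65% were called higher and 2.48% lower, so 1 of 41 lower genes was close to the share of all genes. Called genes that were higher made up 65.2% of all those called, and 50.4%, 51.8% or 79.1% when libraries were scaled by library size only, by library size without ribosomal RNA genes, or with the GC trend removed.

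No proteasome gene was called higher in PA-1 by edgeR, 2 (PSMD2 and PSMD3) had an unadjusted p under 0.05 in that direction, and DESeq2 called 1 (PSMD2). PSMD2 stood at 188, 182 and 189 CPM with DMSO and at 211, 211 and 202 CPM with BAY-850 (0.16 ± 0.053 SE, adjusted p = 0.0828). In the downward direction 5 genes had an unadjusted p under 0.05 (PSMA3, PSMB1, PSMD6, PSMD12 and POMP), and DESeq2 called PSMA3, PSMD6, PSMD12 and POMP. Of all 15212 genes tested DESeq2 called 1737, and 58.2% of those were higher. The share of all genes with an unadjusted p under 0.05 was not counted. POMP gave -0.23 ± 0.070 SE (adjusted p = 0.0635), from 89.3, 79.7 and 80.8 CPM to 71.3, 65.6 and 76.2 CPM. PSMA3 gave -0.22 (adjusted p = 0.0589). The groups separated upward for 2 genes and downward for 7, against 14.4% and 13.1% of all genes tested. The median log2 fold change was -0.047 over the 41 genes, 32 of them below 0, against -0.0019 over all genes.

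None of the tested immunoproteasome and activator genes of PA-1 cells was called by edgeR or DESeq2 or had an unadjusted p under 0.05. PSMB8 was counted 13, 75 and 25 times with DMSO and 63, 64 and 50 times with BAY-850, so that the DMSO libraries alone spanned the BAY-850 values (0.68 ± 0.439 SE, 95% interval -0.26 to 1.62, adjusted p = 0.381). The value ran from 0.32 without PA-1 DMSO replicate 1 to 1.45 without PA-1 DMSO replicate 2, and it was not called under any alternative. PSMB9 was counted 8, 10 and 3 times with DMSO and 8, 16 and 0 times with BAY-850, below the filter on low counts, so a change of it could not be measured at this depth. PSMB10 gave -0.05 ± 0.173 SE (adjusted p = 0.899). PSME1, at 87.1, 82.6 and 90.0 CPM with DMSO and 79.2, 82.4 and 93.5 CPM with BAY-850, gave -0.02 (95% interval -0.17 to 0.13). PSME2 gave -0.10 (95% interval -0.25 to 0.04, adjusted p = 0.394), PSME3 gave 0.05 (adjusted p = 0.624) and PSME4 gave -0.03 (adjusted p = 0.799). PSMB5, PSMB6 and PSMB7 gave -0.02, 0.03 and -0.02.

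The difference between the responses was tested directly, as SK-OV-3 minus PA-1, with an interaction term in a fit of all 12 libraries. Of the 42 genes, 2 responded more positively in SK-OV-3 cells and 7 more negatively, where 6.70% and 7.77% of all 16830 genes tested did so, so that the share among the 42 was lower than that of all genes for positive responses and higher for negative ones. PSME1 (0.50 ± 0.095 SE, adjusted p = 0.00252) and PSME2 (0.41 ± 0.103 SE, adjusted p = 0.0144) were the positive ones. The negative ones were the cap genes PSMD2 (-0.69 ± 0.079 SE, adjusted p = 3.40e-05), PSMD1 (-0.40, adjusted p = 0.00166), PSMD3 (-0.37, adjusted p = 0.00720), PSMC3 (-0.30, adjusted p = 0.0317), PSMD11 (-0.29, adjusted p = 0.0195) and PSMC5 (-0.28, adjusted p = 0.0311), and the activator PSME3 (-0.36, adjusted p = 0.00135). The other 33 genes were not called. Of all genes called in this comparison 46.3% were positive, and 57.9% when libraries were scaled by library size only, a scaling under which PSMC3, PSMC5 and PSMD11 were not called.

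None of the 14 constitutive core genes was called for a difference between the lines by edgeR or DESeq2. PSMB2, PSMB3 and PSMB5 had an unadjusted p under 0.05, a threshold at which the share of all genes was not counted. PSMB5 gave -0.25 (adjusted p = 0.0983). PSMB9 gave 0.46 ± 0.663 SE (adjusted p = 0.708), an error that reflects the 8, 10, 3, 8, 16 and 0 counts in PA-1, so its rise in SK-OV-3 cells was not shown to differ from PA-1. PSMB8 gave -0.54 ± 0.347 SE (adjusted p = 0.338), and -1.37 (adjusted p = 0.00489) without PA-1 DMSO replicate 2, the library with 75 counts. PSMD12 gave 0.22 (adjusted p = 0.0956). Without 1 library the count of 7 negative genes ran from 5 to 9. The calls of PSMC3, PSMC5 and PSMD11 were lost without PA-1 DMSO replicate 2, that of PSMD11 also without SK-OV-3 DMSO replicate 2, and that of PSMC3 or PSMC5 or both without 8 other libraries in turn (adjusted p of 0.0521 to 0.0877), whereas PSMD1, PSMD2, PSMD3 and PSME3 were called under every alternative.

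The proportion of immunoproteasome to constitutive transcripts was followed as the level per kilobase of transcript of each alternative subunit, in percent of that of its counterpart. The length of each gene was that of its longest principal transcript in GENCODE v29, and it was the same in every group. A percentage as such depends on that choice of length, whereas the direction of a change between groups does not. In SK-OV-3 cells PSMB8 stood at 89.2%, 88.3% and 90.5% of PSMB5 with DMSO and at 113.5%, 120.0% and 107% with BAY-850. PSMB9 stood at 49.6%, 51.3% and 53.4% of PSMB6 with DMSO and at 91.8%, 82.1% and 88.3% with BAY-850. In both pairs the BAY-850 libraries lay above the DMSO libraries; PSMB9 was called higher and PSMB6 was not called, whereas PSMB5 was called lower and PSMB8 was not called. PSMB10 stood at 10.9% ± 0.365 of PSMB7 with DMSO and 12.1% ± 1.62 with BAY-850 (mean ± SD, n = 3).

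In PA-1 cells the same proportions were 0.809% ± 0.596 with DMSO and 1.32% ± 0.202 with BAY-850 for PSMB8, 0.1805% ± 0.0756 and 0.208% ± 0.208 for PSMB9, and 4.54% ± 0.781 and 4.44% ± 0.680 for PSMB10 (mean ± SD, n = 3). The group means of PSMB8 and PSMB9 were thus at most 1.32% in this line. Among the activators, PSME1 stood at 71.3%, 61.7% and 59.6% of PSME3 in SK-OV-3 cells with DMSO and at 111%, 110.0% and 112% with BAY-850, and at 77.1% ± 2.22 and 73.4% ± 6.65 in PA-1 cells. PSME1 was 359% ± 16.2 of PSME2 with DMSO and 403% ± 16.9 with BAY-850 in SK-OV-3 cells. The length used for PSME3 was 998 bases, while its exons cover 5152 bases in all, so percentages of PSME3 depend on that choice. These proportions are given as a description, with no test.

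**Figure D4:**
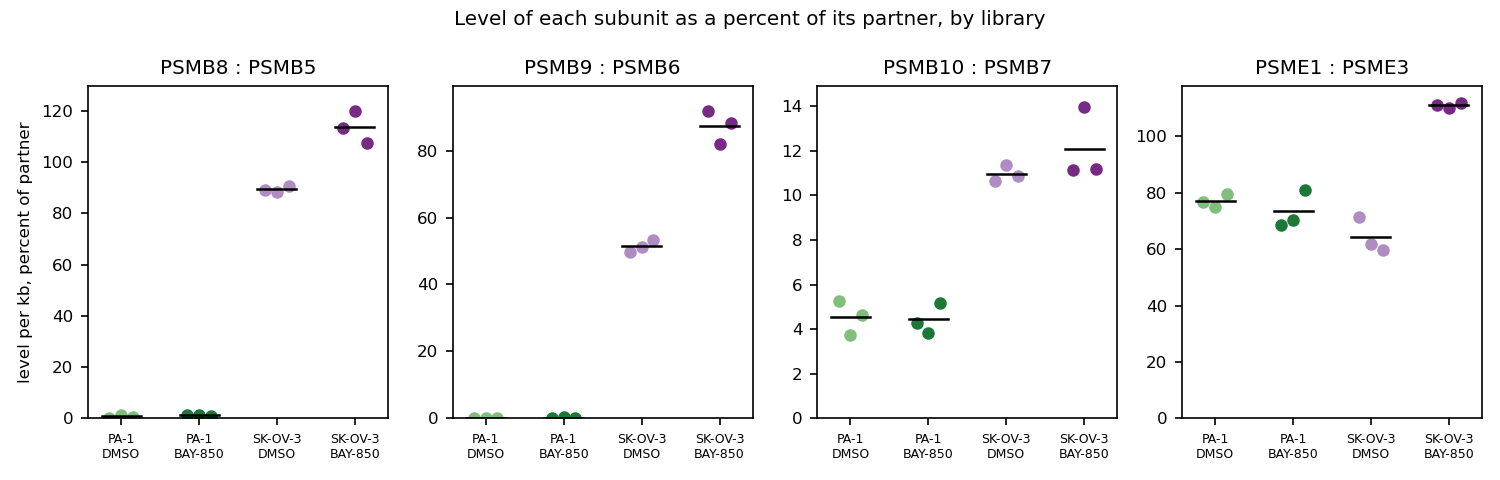
Level per kilobase of PSMB8, PSMB9, PSMB10 and PSME1 as a percent of the partner named above each panel, in each of the 12 libraries, with the mean of 3 libraries as a line. In SK-OV-3 cells the BAY-850 points lie above the DMSO points for PSMB8, PSMB9 and PSME1, and for PSMB10 the means are 10.9% and 12.1%.

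Around the proteasome, 27 genes of its assembly, associated factors and control were measured. In SK-OV-3 cells 2 of 27 were higher and 4 lower (median log2 fold change -0.035), both close to the shares of all genes (10.8% and 9.56%), so the list as a group did not stand out by its counts. The lower ones were the unfoldase VCP (-0.25, adjusted p = 0.00166) and its ubiquitin-binding cofactors UFD1L (-0.31, adjusted p = 0.00379) and NPLOC4 (-0.20, adjusted p = 0.0113), which together extract ubiquitinated proteins, and USP14, a deubiquitinase of the cap (-0.18, adjusted p = 0.0344). VCP went from 637, 651 and 665 CPM to 555, 539 and 535 CPM. In the interaction test 3 of the 27 were more negative in SK-OV-3 cells and 2 more positive, close to the 7.77% and 6.70% of all genes. The negative ones were VCP, UFD1L and NPLOC4 (-0.35, -0.30 and -0.31), which gave 0.08, -0.02 and 0.10 in PA-1 cells without a call. UFD1L lost its interaction call without 8 of the 12 libraries (adjusted p of 0.0555 to 0.0749). With library size only, UFD1L and NPLOC4 both lost it (adjusted p = 0.118 and 0.0534). The genes higher with BAY-850 in SK-OV-3 cells were RAD23B, a shuttle factor (0.15, adjusted p = 0.0483), and NFE2L1, a transcription factor that drives proteasome genes (0.18, adjusted p = 0.0274). The SK-OV-3 call of NPLOC4 was lost without SK-OV-3 DMSO replicate 2 or BAY-850 replicate 1 (adjusted p = 0.0635 and 0.0547). Without 1 library those of USP14 and NFE2L1 were lost in 4 of 6 cases and that of RAD23B in all 6 (adjusted p of at most 0.151). USP14, NFE2L1 and RAD23B also lost theirs with library size only and with the replicate block.

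In PA-1 cells 2 of these 27 genes were higher, NFE2L1 (0.22, adjusted p = 0.0462) and the shuttle factor UBQLN4 (0.24, adjusted p = 0.0254), and 1 was lower, the deubiquitinase UCHL5 (-0.26, adjusted p = 0.0332), with a median of -0.0093. These counts too were close to the shares of all genes, 4.65% and 2.48%. NFE2L1 went from 175, 178 and 175 CPM to 222, 203 and 188 CPM in PA-1 and from 186, 191 and 193 CPM to 216, 225 and 200 CPM in SK-OV-3 cells. A link between NFE2L1 and the proteasome genes was not tested. The PA-1 calls of NFE2L1, UBQLN4 and UCHL5 were lost in 5, 4 and 5 of 6 cases when 1 library was left out (adjusted p of at most 0.174). They were also lost with scaling by library size only and with the GC trend removed. NFE2L1 kept its PA-1 call in 5 of 15 alternatives. The subunits PSMA8 and PSMB11, which belong to testis and thymus, did not exceed 0.133 CPM and were not tested.

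For peptide supply to MHC class I, 12 genes of the list are reported. In SK-OV-3 cells 6 were higher, a larger share than the 10.8% of all genes, and 2 lower, close to the 9.56% (median log2 fold change 0.22 over the 12). The list was chosen with earlier results of these data known, and 2 further genes of it are not reported, so these shares are a description only. IRF1, a transcription factor of the interferon response, went from 29.1, 28.9 and 30.1 CPM to 44.5, 44.0 and 41.1 CPM (0.57, adjusted p = 1.93e-04). It rose, as did PSMB9, PSME1 and PSME2, whereas PSMB8 and PSMB10 were not called. A link between IRF1 and these genes was not tested. TAP1, the peptide transporter, rose by 0.54 (adjusted p = 3.49e-04), from 60.5, 63.3 and 66.4 CPM to 93.6, 99.8 and 81.6 CPM. Its gene lies within the GENCODE span of PSMB9, on the opposite strand, and PSMB9 and TAP1 share no exon base. The peptide-loading factor TAPBP (0.42), the MHC class I light chain B2M (0.28) and the heavy chains HLA-B (0.30) and HLA-C (0.19) were higher too. The chaperones CALR (-0.24) and PDIA3 (-0.19) were lower. The calls of HLA-C and PDIA3 were lost without SK-OV-3 DMSO replicate 2 or 3 or BAY-850 replicate 1 or 2, with an adjusted p between 0.0505 and 0.168.

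In PA-1 cells TAPBP was higher (0.36, adjusted p = 0.0219) and B2M lower (-0.27, adjusted p = 0.0222), and the other 10 genes were not called. Over all genes tested in PA-1, 4.65% were higher and 2.48% lower. Both calls were lost without DMSO replicate 1 or 2 or BAY-850 replicate 2 (adjusted p of 0.0846 to 0.113 for TAPBP), and with the GC trend removed. That of B2M was also lost without BAY-850 replicate 1, and that of TAPBP with library size only. The interaction test called 3 of the 12 genes as more positive in SK-OV-3 cells, B2M (0.54), IRF1 (0.40) and TAP1 (0.44), and 1 as more negative, CALR (-0.38). Of all genes tested, 6.70% and 7.77% were called in these directions. The TAP1 call was lost without 6 of the 12 libraries (adjusted p of 0.0521 to 0.0916). Under DMSO, 10 of the 12 genes were lower in PA-1 and 1 was higher, where 40.1% and 40.2% of all genes were.

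**Figure D5:**
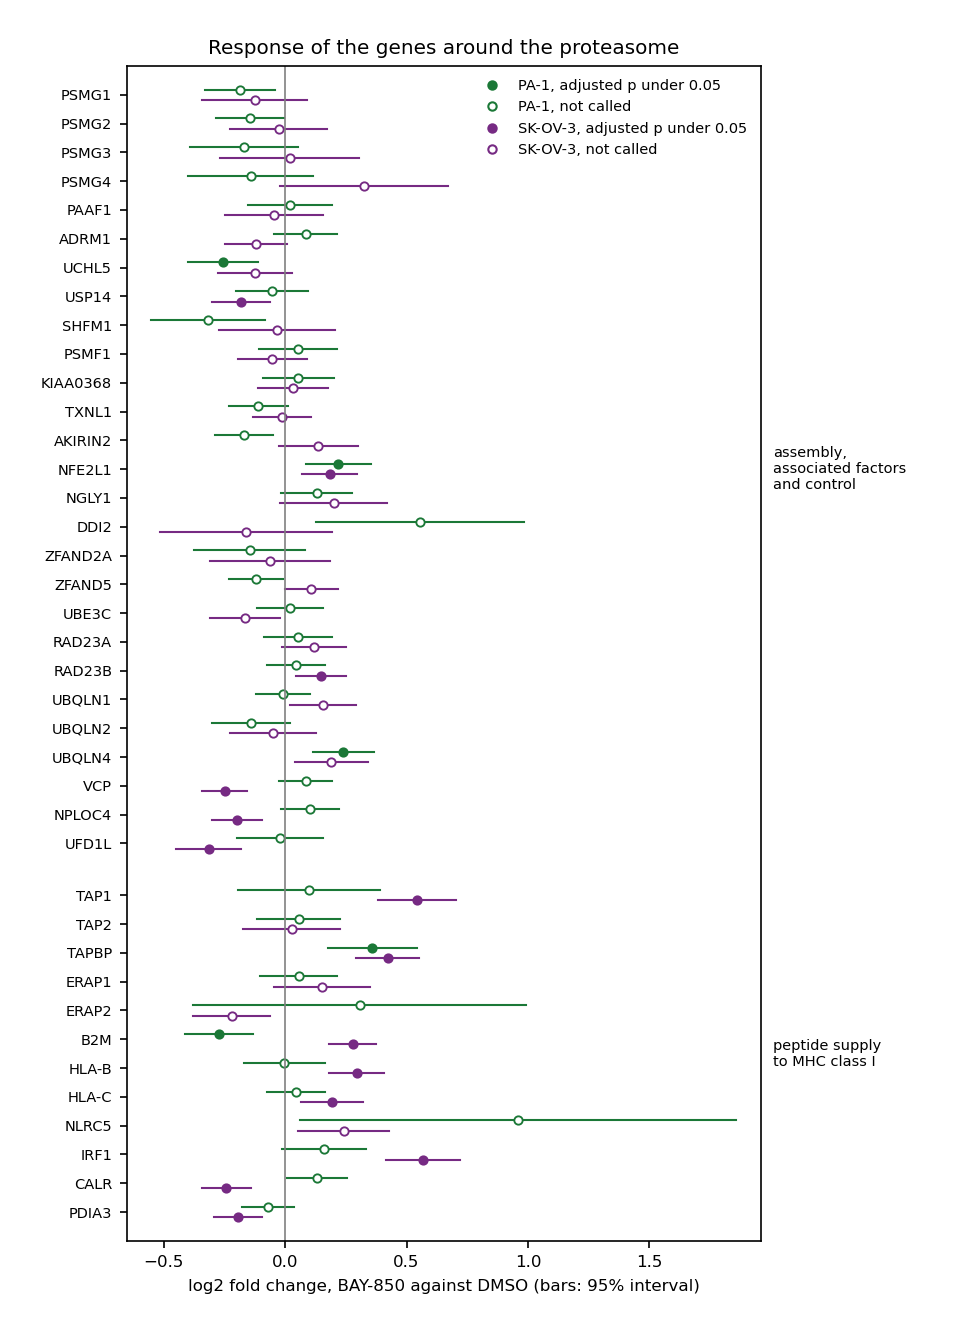
Log2 fold change with BAY-850 against DMSO in PA-1 (green) and SK-OV-3 cells (purple) for the 27 genes of assembly, associated factors and control and the 12 genes of peptide supply to MHC class I, with 95% intervals as bars and filled points for an adjusted p under 0.05. In SK-OV-3 cells 6 of the 12 peptide supply genes are filled points right of 0, with IRF1 at 0.57, and VCP, NPLOC4, UFD1L and USP14 are filled points left of it.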

How the data were processed

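RNA was measured in 12 libraries of PA-1 and SK-OV-3 cells (3 per group). What the authors deposited are expected counts for each gene symbol, not normalized, and the submitters' processing notes name RSEM 1.2.15, Bowtie2 2.1.0 and hg38. The annotation and the strand setting of RSEM are not given in the sources used here. RSEM divides reads that fit several genes, and 28 of 504 values of the 42 proteasome genes were not whole. The labels describe oligo-dT beads and strand marking, while the design text names depletion of ribosomal RNA.

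Expected counts were rounded, scaled with TMM, filtered with filterByExpr and tested with edgeR 4.0.16 (quasi-likelihood) under R 4.3.3. The standard error was the log2 fold change divided by the square root of F. Fits held the libraries compared, and all 12 for the difference between lines. Levels are TMM-normalized CPM, and a count of 0.5 was added for the log2 values of the proportions. Alternatives were DESeq2 1.42.0, RLE factors, library size with and without ribosomal RNA genes, GC trend removal (loess span 0.5), no filter or at least 10 counts, the replicate block, a fit of all 12 libraries and leaving out each library. Replicates of a group differed by more than sampling noise. The scripts were tested on simulated counts.

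The members and gene lists were chosen with earlier results of these data known, and 2 further genes of the peptide supply list, outside the 12 counted, are not reported here. Values in full were given for the immunoproteasome, its counterparts, the activators, POMP, and the PSMA, PSMC and PSMD genes with the smallest p in each comparison, and list genes were named only where called with BAY-850 in a line. Gene positions and lengths are from GENCODE v29 (GRCh38), matched by symbol for 23900 symbols and by synonym for 754, with 1795 unmatched. The SDs and intervals cover 3 libraries per group, whose separate cultures are described only as biological replicates.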

Additional observations from a re-analysis of the deposited data

Results flagged for a closer look

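The response to BAY-850 differed between the lines for 9 of the 42 genes in the interaction test (log2 response in SK-OV-3 minus that in PA-1, edgeR). The difference was 0.50 for PSME1 and 0.41 for PSME2. It was -0.69 for PSMD2, -0.40 for PSMD1, -0.37 for PSMD3, -0.36 for PSME3, -0.30 for PSMC3, -0.29 for PSMD11 and -0.28 for PSMC5. The PSMD2 value joined a decrease in SK-OV-3 cells (-0.52) to an uncalled positive value in PA-1 cells (0.16, adjusted p = 0.0828).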

How the results depend on the processing

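In PA-1 cells, where 1 gene was called lower and 0 higher, DESeq2 called 4 lower and 1 higher, scaling by library size only and GC trend removal called 0 lower, and library size without ribosomal RNA genes, no filter and the filter of 10 counts each called 3. Leaving out 1 library gave 0 to 3. In SK-OV-3 cells the 15 lower became 8 to 18 without 1 library and 20 with DESeq2 or all 12 libraries in one fit, and the 3 higher became 2 to 3. Between the lines under DMSO, the 2 higher became 2 to 4 without 1 library. For the difference of response, the 7 lower became 4 with library size only and 5 to 9 without 1 library. The other alternatives kept each count of members within 1.5 times, and every scaling moved the median of all genes by under 0.1 on the log2 scale.

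The replicate numbers did not pair the samples: deviations of same-numbered libraries correlated between -0.0319 and 0.0440, and 2 of 9 correlated best with their own number. With the replicate block, 1 lower and 0 higher were called in PA-1, 12 and 3 in SK-OV-3 (PSMA3, PSMB3 and PSMD13 no longer lower, with an adjusted p of 0.0855, 0.0559 and 0.0506), 36 and 3 between the lines, and 7 and 2 for the difference.

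Values near 0 changed sign without any call. Without 1 library, the PA-1 values ran from -0.19 to 0.11 for PSMB10, -0.097 to 0.025 for PSME1, -0.080 to 0.010 for PSME4, -0.064 to 0.029 for PSMB5, -0.038 to 0.088 for PSMB6 and -0.072 to 0.010 for PSMB7, the SK-OV-3 value of PSMB10 from -0.058 to 0.13, the difference from -0.090 to 1.45 for PSMB9 and -0.062 to 0.24 for PSMB10, and the log2 ratio of PSMB10 to PSMB7 in PA-1 from -0.17 to 0.086. PSMB6 in PA-1 became -0.0042 with library size only and -0.016 with GC trend removal, PSME4 in PA-1 became 0.064 with it, and the difference of POMP -0.033. The cause of these changes was not tested. Depth limits PSMB8 and PSMB9 in PA-1, which rest on 0 to 75 counts per library.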
